A study of Saccharomyces cerevisiae with 4 samples.

Results

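Loss of SIR3 in budding yeast was described here by comparing 1 array of a strain labelled as a SIR3 deletion with 1 array of the wild type, over all genes. A gene was taken as a member where its log2 level differed at least 2-fold between these arrays. Of 5449 Saccharomyces cerevisiae genes measured, 131 did, 40 of them higher and 91 lower in the SIR3 deletion, which is 0.734% and 1.67% of the genes, or 2.4% in either direction. At a limit of 1.5-fold, 2.72% of genes were higher and 3.78% lower, 6.5% together, and at 3-fold 0.275% and 0.918%, 1.19% together. Because the members were chosen by this difference, their differences are a description. With 1 array a strain no test was possible, no value has a replicate check, and precision is limited by how many arrays there are.

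Sir3 is a structural protein of yeast silent chromatin. It binds the tails of deacetylated histones and spreads along nucleosomes with Sir2, a histone deacetylase that needs NAD, and Sir4, a scaffold. The complex keeps the silent mating loci HML and HMR closed and acts next to telomeres. A haploid cell takes its mating type from the MAT locus. In a cell that also expresses the silent copies, the a1 and alpha2 proteins form a repressor that is normally found in diploids and turns off genes of haploid life.

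The wild type carried the strain name BY4742, a laboratory haploid of mating type alpha, and the series also held strains lacking SIR2 and SIR4. Per the labels, a KanMX gene was recombined in to make the deletions, and all strains grew at 30 °C in rich glucose medium (YPD) to exponential phase. The labels do not say from which strain the deletions were made, nor how many clones or cultures each array stands for, and an effect of the KanMX insertion cannot be told apart from that of losing SIR3. A set of 6 reporter probe sets with no gene name lay at 7.48 to 13.0 in wild type and 7.44 to 12.8 in the SIR3 deletion, but at 2.49 to 3.53, below background, in the SIR4 deletion. What these probe sets read was not tested, nor whether the SIR4 deletion has another parent than the rest. Another parent would bear on every SIR4 level given. Values are log2 RMA levels, and unless stated otherwise a series of 4 levels follows the order wild type, SIR2 deletion, SIR3 deletion and SIR4 deletion. All 3 deletions are compared with the same wild-type array, so their differences are not independent of each other. In RNA from whole cultures, fewer expressing cells and less RNA per cell cannot be told apart.

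The median difference (SIR3 deletion minus wild type) over all genes was -0.01, with an SD of 0.49 across genes. The 1746 probe sets for another yeast on the same arrays gave a background level, their 95th percentile, which was 4.29 for wild type and 4.39 for the SIR3 deletion. Among the 40 higher genes, 36 were above background on both arrays, and among the 91 lower genes 77 were. For a gene below background on 1 side, values were raised to the background level and the fold is given as at least that size. The bound depends on the level chosen. With values raised to the 99th percentile of the other yeast instead, MF(ALPHA)1 was at least 216-fold, FAR1 45.2-fold and FUS3 12.4-fold lower. HMRA1 was then at least 12.7-fold higher. The differences of 42 spiked control probe sets ran from -0.58 to 0.44, with a median of -0.11 and an SD of 0.16. In 3 prime minus 5 prime signal, the arrays differed by -0.11 to 0.31 over 7 control genes. Just inside the 2-fold limit lay HSP30 at 1.02, YER053C-A at 1.04 and QCR2 at 1.07, and just outside it MTL1 at 0.998, HSP82 at 0.997 and RAD16 at 0.996. Among lower genes, SPG4, ARG3 and RTT107 lay inside at -1.03, -1.05 and -1.05, and GAP1, YIL082W-A and MSB2 outside at -0.999, -0.995 and -0.980.

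**Figure D1:**
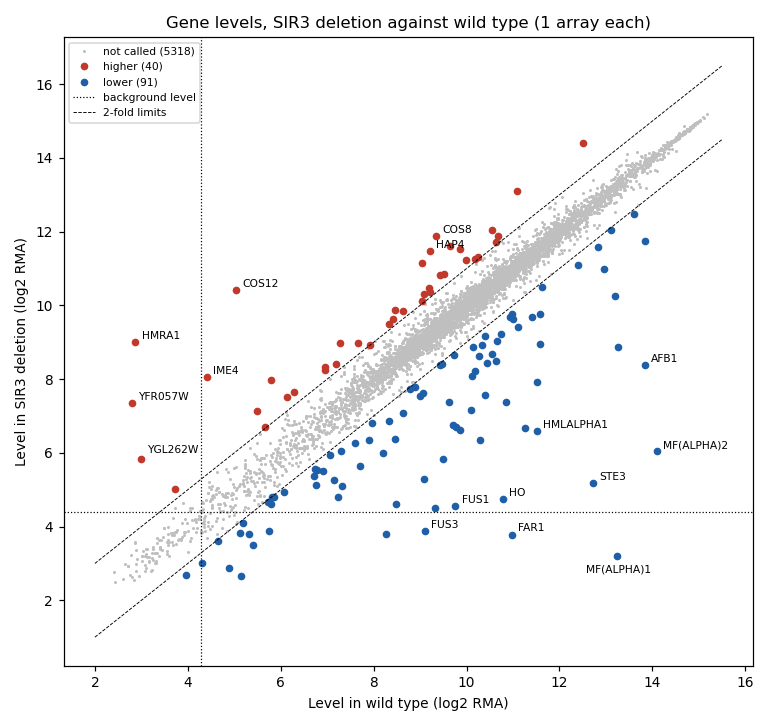
Level of each of 5449 genes in wild type (horizontal axis) and in the SIR3 deletion (vertical axis), both log2 RMA levels from 1 array each. Red points are the 40 genes at least 2-fold higher, blue points the 91 at least 2-fold lower, dashed lines the 2-fold limits and dotted lines the background level of each array. The points farthest from the diagonal include HMRA1, COS12 and YFR057W above it and MF(ALPHA)1, MF(ALPHA)2 and STE3 below it.

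SIR3 itself had levels of 9.32, 9.29, 4.51 and 9.44. The SIR3 deletion array alone was low, with a difference of -4.81, and stood just above its background of 4.39. The genes for its partners stayed within the 2-fold limit, with SIR1 at -0.35, SIR2 at 0.38 and SIR4 at -0.07. Of the 5 nearest measured genes on either side of SIR3, 9 were not called, and their differences ran from -0.41 for ECM7, the immediate neighbour, to 0.56 for MRPL4. The exception was CAR2, at the fifth place, which was higher by 1.23 and had differences of 1.95 and 0.49 in the SIR2 and SIR4 deletions. Whether it belongs to the change made at the locus was not tested.

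The a1 signal was high and the alpha1 signal low in the SIR3 deletion. The probe set named for HMRA1, the a1 gene at HMR, had levels of 2.87, 9.38, 9.01 and 9.80. It lay below background in wild type alone, and the SIR3 deletion was at least 26.3-fold higher. The a1 gene is also found at MAT in a cells and the parent strain of the deletion is not given, so the signal cannot be placed at HMR from the name. HMLALPHA1 encodes alpha1, the activator of alpha-specific genes, and its probe set had levels of 11.51, 6.80, 6.58 and 6.91, a difference of -4.93. Its probe set belongs to those that can match several sequences, and HML carries a copy of genes found at MAT, so this signal cannot be assigned to HML or to MAT. HMRA2, with a probe set of the same class, had levels of 11.15, 10.65, 10.80 and 10.85 and was not called.

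The 5 alpha-specific genes, which alpha1 activates and which mark an alpha cell, were bright in wild type, from 12.72 to 14.10, and all were called lower in the SIR3 deletion. MF(ALPHA)1, a gene for the alpha-factor pheromone, had levels of 13.23, 3.36, 3.21 and 3.51. No deletion array reached background for it, and the SIR3 deletion was at least 458-fold below wild type. MF(ALPHA)2, the other alpha-factor gene, had levels of 14.10, 5.89, 6.04 and 5.83, a difference of -8.06. STE3 encodes the receptor by which alpha cells sense a-factor. Its levels were 12.72, 7.10, 5.19 and 7.03, lowest in the SIR3 deletion, where it was 185-fold lower than in wild type. With values raised to the 99th percentile of the other yeast, STE3 was at least 151-fold lower. AFB1, a gene for an a-factor barrier protein, had levels of 13.85, 8.63, 8.39 and 9.36. SAG1, the alpha-agglutinin that binds mating partners, had 13.26, 9.10, 8.88 and 8.99. The median difference of the 5 genes was -7.53.

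The a-specific genes, which alpha2 represses and which mark an a cell, were not called. Their wild-type levels ran from 4.63 to 7.25, their differences from -0.82 for AGA2, an agglutinin subunit, to 0.07 for ASG7, and their median was -0.30. STE2, the alpha-factor receptor, had levels of 6.71, 6.47, 6.14 and 6.72, and the a-factor gene MFA2 had 5.33, 5.23, 4.86 and 5.05. Of the 7, 6 had a negative difference.

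**Figure D2:**
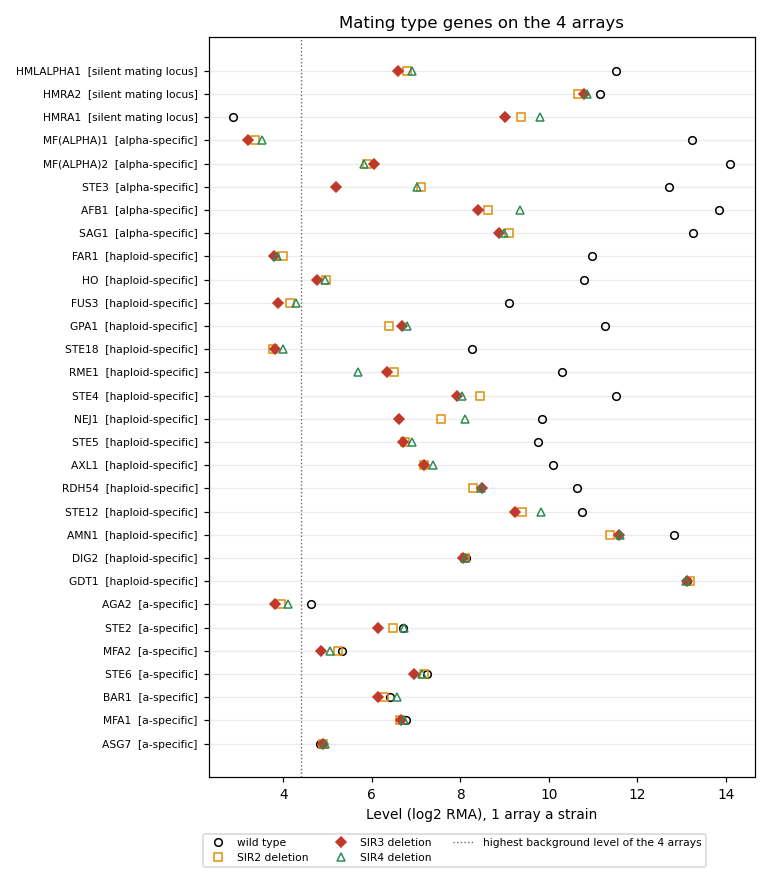
Levels (log2 RMA, horizontal axis) of the measured genes of the silent mating loci and of the alpha-specific, haploid-specific and a-specific lists, 1 array a strain, with each strain by its own marker. In the alpha-specific list, and in the haploid-specific list except GDT1, the wild type stands to the right of all 3 deletions, and for HMRA1 it stands to the left.

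Of 15 haploid-specific genes, 13 were called lower in the SIR3 deletion, 86.7% of the list against 1.67% of all genes, with a list median of -3.23. The G protein that carries the pheromone signal was low in all its subunits. GPA1, the alpha subunit, had levels of 11.26, 6.38, 6.67 and 6.79. STE4, the beta subunit, had 11.52, 8.44, 7.93 and 8.05. STE18, the gamma subunit, had 8.26, 3.78, 3.81 and 4.00 and was below background in each deletion, at least 14.6-fold lower in the SIR3 deletion. For each subunit the wild type stood above all 3 deletions.

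Downstream of the G protein, the scaffold and the last kinase of the cascade were called lower, and the kinases above it were not called. STE5, the scaffold, had levels of 9.76, 6.76, 6.70 and 6.91. FUS3, the mitogen-activated kinase, had 9.10, 4.15, 3.88 and 4.28, at least 26.3-fold lower in the SIR3 deletion. The upstream kinase genes STE7, STE11 and STE20 and the adaptor STE50 differed by -0.22, -0.12, -0.02 and -0.01. FAR1, which halts the cell cycle during mating, had levels of 10.97, 3.98, 3.78 and 3.85 and was at least 96.0-fold lower. STE12, the transcription factor at the end of the cascade, had 10.74, 9.40, 9.23 and 9.82, a smaller difference of -1.52, and its inhibitor DIG2 differed by -0.06.

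The remaining haploid-specific genes have other roles. HO, the endonuclease that starts mating type switching, had levels of 10.79, 4.96, 4.75 and 4.95, 65.5-fold lower in the SIR3 deletion, or at least 39.7-fold with values raised to the 99th percentile of the other yeast. RME1, a repressor of entry into meiosis, had 10.29, 6.49, 6.34 and 5.68. NEJ1, which regulates non-homologous end joining, had 9.85, 7.55, 6.62 and 8.10. Its level was lowest in the SIR3 deletion, with a difference of -3.23 against -2.29 and -1.75 in the SIR2 and SIR4 deletions. AXL1, needed for the axial budding of haploid cells and for a-factor maturation, had 10.10, 7.18, 7.17 and 7.39. RDH54, a recombination helicase, had 10.63, 8.29, 8.48 and 8.46, and AMN1, which helps daughter cells separate, had 12.83, 11.38, 11.58 and 11.61. GDT1 was the other member not called, at 0.00.

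The pheromone response list, which held genes that the pathway induces and also the cascade genes STE7, STE11, STE20 and STE50, was split. Of 28 pheromone response genes, 10 were called lower and none higher, 35.7% of the list against 1.67% of all genes lower, with a list median of -0.43, and 24 had a negative difference. FUS1, a membrane protein of cell fusion, had levels of 9.76, 5.53, 4.55 and 6.03, lowest in the SIR3 deletion. SST2, which dampens the signal by stimulating the GTPase of Gpa1, had 10.85, 7.58, 7.39 and 8.32. AGA1, the anchor of a-agglutinin, had 11.57, 9.33, 8.95 and 9.18. The other called members were PRM1 at -2.21, TEC1 at -1.65, KAR4 at -1.40, PRM5 at -1.21 and KAR5 at -1.08, with PRM6 and FIG1. Both of the last were below background in the SIR3 deletion, PRM6 at least 2.02-fold and FIG1 at least 1.91-fold lower. Several genes of the same list lay at the wild-type level, among them the fusion gene FUS2 at -0.07, PRM8 at 0.11 and PRM10 at 0.01. PRM7 was at -0.08 without SIR3 and -1.76 without SIR2.

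Of the 9 genes listed as processing pheromones, a list that leaves out AXL1 at -2.93, STE14 alone was called. It encodes the methyltransferase that finishes a-factor and other prenylated proteins, and its levels were 11.12, 9.36, 9.42 and 9.31. KEX2 and STE13, the proteases that mature alpha-factor, differed by -0.30 and -0.21. The list median was -0.23. Together the lists of mating loci, alpha-specific, haploid-specific and pheromone response genes held 51 measured genes. Of these 29, or 56.9%, were called lower against 1.67% of all genes, and 1 was called higher. This count leaves out the a-specific list, with no called gene, and the pheromone processing list. The lists were chosen with earlier results of these data known. Among 10 bud site genes AXL1 was the called member and the median was -0.26, with BUD9 highest at 0.54 and RAX2 next above AXL1 at -0.65.

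In the meiosis list IME4 stood apart. It encodes the mRNA methyltransferase that is normally active in diploid cells entering meiosis, and its levels were 4.40, 7.96, 8.06 and 8.12, 12.6-fold higher in the SIR3 deletion than in wild type. The wild-type level stood just above the background of 4.29, and with values raised to the 99th percentile of the other yeast IME4 was at least 6.595-fold higher. The annotation places an antisense RNA, RME2, over IME4, and RME2 was not measured here. The remaining 15 listed genes were not called, from -0.71 for SPO20 to 0.61 for IME1, the master regulator of meiosis, and the list median was -0.20. Outside the list, NDJ1, a meiotic telomere protein, had levels of 4.88, 3.27, 2.88 and 4.11. It lay below background in the SIR3 deletion and was at least 1.41-fold lower. The spore genes SPO19 and SPS100 differed by -1.39 and -1.17. An antisense RNA, SUT169, is annotated over SPS100 and was not measured either.

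The series title names subtelomeric regions, and position on the chromosome was not used to choose the members. Of 174 genes within 20 kb of a chromosome end, 8 were called higher, 4.60% with an exact 95% binomial interval of 2.01 to 8.86% that covers counting error only, against 0.607% of the 5275 genes farther in. All 8 lay within 10 kb, where they made up 10.4% of 77 genes, and between 10 and 20 kb 0 of 97 were higher, with an exact 95% interval that reaches 3.73%. Without probe sets that can match several sequences, 5 of 130 genes within 20 kb were higher. Of 12 measured outermost genes, 4 were higher. Positions and gene order came from the R64 reference table, and right ends were taken as the outermost annotated feature.

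COS12 is the outermost gene of its end and a member of a family of membrane proteins that act in protein sorting. It had levels of 5.04, 10.62, 10.41 and 10.28, 41.3-fold higher in the SIR3 deletion. With values raised to the 99th percentile of the other yeast, COS12 was at least 33.6-fold higher. YFR057W and YGL262W, with no standard name, were below background in wild type. YFR057W had levels of 2.80, 7.12, 7.36 and 7.59, at least 8.39-fold higher. YGL262W, next to COS12, had 2.99, 6.49, 5.83 and 6.70, at least 2.90-fold higher. Raised to the 99th percentile, YFR057W was at least 4.06-fold and YGL262W at least 1.40-fold higher, the latter under the 2-fold limit. YCR108C, also an outermost gene, had 5.79, 9.05, 7.99 and 8.53, lower in the SIR3 deletion than in the other deletions. COS8, at place 4 from its end, had 9.35, 12.02, 11.89 and 11.60. In these genes wild type was the lowest of the 4 arrays.

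IMD2, COS7 and DDI3 completed the group, and each has a probe set of a class that can match several sequences, so the signal cannot be placed at these ends. IMD2 encodes an inosine monophosphate dehydrogenase of GTP synthesis, and its levels were 9.65, 11.47, 11.61 and 11.19. COS7 had 8.42, 9.73, 9.64 and 9.33 and DDI3, a cyanamide hydratase gene, 6.13, 7.76, 7.50 and 7.50. The other guanine nucleotide genes were not called, with IMD3 at 0.05, IMD4 at 0.10 and HPT1 at -0.16, and the list of 8 had a median of 0.06. Of 9 COS genes 3, or 33.3%, were higher against 0.734% of all genes and 6 were not called, with a median of 0.73, or 0.48 without probe sets that can match several sequences. COS4 and COS6 were at 0.88 and 0.73, and COS9 and COS10 at 0.12 and 0.00.

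Lower genes were as frequent near the ends as higher genes. Within 20 kb 9 of 174 genes, or 5.17%, were called lower, against 1.55% of genes farther in. They were HMLALPHA1, YMR317W, SNO3, YAR068W, ARN2, SOR2, SNZ3, YBR298C-A and YAR066W, of which HMLALPHA1, SNO3, SOR2, SNZ3 and YAR066W have probe sets that can match several sequences. For YBR298C-A and YAR066W, below background in the SIR3 deletion, values raised to background left differences of 0.08 and -0.79. YMR317W, with no standard name, had levels of 8.47, 4.50, 4.62 and 5.24. YAR068W, a neighbour of YAR066W, had 10.19, 9.66, 8.23 and 10.60, low in the SIR3 deletion and not in the SIR4 deletion. Of 32 chromosome ends with a measured gene among the outermost 8, 7 held a higher gene and 25 did not. The median of all genes within 20 kb was 0.06. The list of other families with members near ends had 2 of 33 genes higher and 3 lower. These were 6.06% and 9.09% of the list, against 0.734% and 1.67% of all genes. The list median was -0.10. Not called were 28 genes, from -0.82 for PAU24 to 0.72 for PAU21, which lay below background on both arrays.

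**Figure D3:**
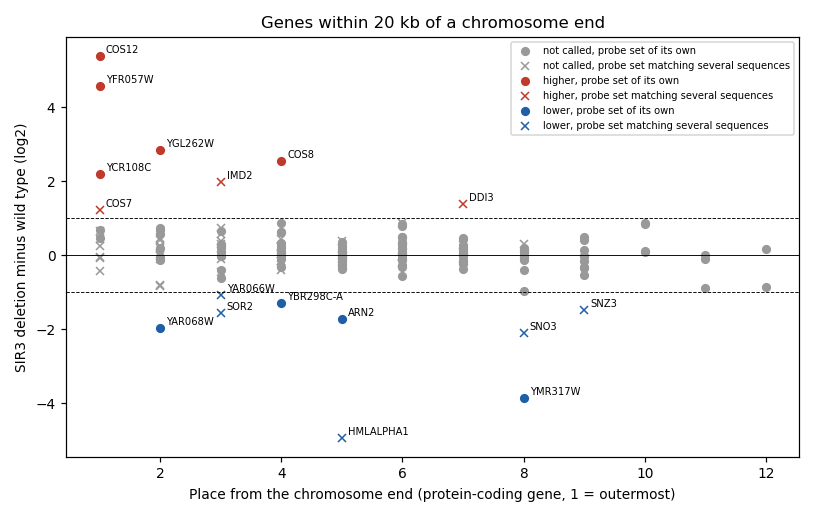
Difference between the SIR3 deletion and wild type (log2, vertical axis) for genes within 20 kb of a chromosome end, by place from the end (horizontal axis, 1 is the outermost protein-coding gene). Red points are called higher, blue lower and grey not called, and crosses mark probe sets that can match several sequences. The 8 higher genes lie at places 1 to 7, and most genes at every place lie between the dashed 2-fold limits.

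Genes of the respiratory complexes had positive differences, most of them under 2-fold. HAP4, the activating subunit that drives genes of respiration, had levels of 9.20, 9.82, 11.48 and 9.82. It was highest in the SIR3 deletion, 4.84-fold above wild type with a difference of 2.27, against differences of 0.61 and 0.61 without SIR2 and without SIR4. Its DNA-binding partners HAP2, HAP3 and HAP5 differed by 0.12, 0.01 and 0.21. ROX1, a repressor of genes used without oxygen, had 9.08, 9.87, 10.32 and 9.67, and in the list of 10 such factors the median was 0.17.

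All 36 measured subunits of succinate dehydrogenase, cytochrome bc1, cytochrome c oxidase and the ATP synthase had positive differences, with a median of 0.41, where 2630 of all 5449 genes were positive. In the same lists 3 genes were called, all higher, 8.33% against 0.734% of all genes. SDH1, the flavoprotein subunit of succinate dehydrogenase, had levels of 8.47, 9.48, 9.87 and 8.75. CYT1, cytochrome c1, had 9.50, 10.63, 10.84 and 10.002, and QCR2, a core subunit of cytochrome bc1, had 10.26, 10.91, 11.32 and 10.90. Medians for the complexes were 0.67 for succinate dehydrogenase, 0.88 for cytochrome bc1, 0.43 for cytochrome c oxidase and 0.28 for the ATP synthase. The SIR2 deletion had medians of 0.68, 0.52, 0.26 and 0.13 for these complexes in turn, and the SIR4 deletion 0.25, 0.42, 0.28 and 0.23.

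Beyond the complexes, INH1, the inhibitor of the ATP synthase, had levels of 9.44, 10.11, 10.83 and 10.23, and RGI1, a gene of respiratory growth, 8.34, 9.41, 9.50 and 8.07. CIT1, the mitochondrial citrate synthase, had 10.62, 11.96, 11.73 and 10.83 and was highest in the SIR2 deletion. Of 15 citric acid cycle genes 2 were higher, CIT1 and SDH1, 13.3% against 0.734% of all genes. In this list 13 had positive differences and the median was 0.35, with CIT3 lowest at -0.19. None of 9 electron carriers and dehydrogenases was called. Their median was 0.38, with CYC7 and CYC1, the cytochrome c genes, at 0.95 and 0.92 and NDE2 at -0.72. Of 24 genes of glycolysis and fermentation none was called and the median was 0.01.

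Of 27 glucose-regulated and gluconeogenic genes, 1 was called higher and 2 lower, 3.70% and 7.41% against 0.734% and 1.67% of all genes. MTH1, a repressor of hexose transporter genes, had levels of 6.29, 7.35, 7.64 and 6.61, while HXT5, a hexose transporter, had 7.59, 6.13, 6.26 and 6.67 and GAL1, the galactokinase, 7.30, 6.38, 6.05 and 5.90. The list median was 0.05. The annotation places an antisense RNA over GAL1 that was not measured here, and whether it adds to the GAL1 signal was not tested. Outside the list, RGS2, which dampens cAMP signalling by glucose, had 7.27, 7.16, 8.99 and 8.26, and SKS1, a kinase of the response to low glucose, 8.63, 9.92, 9.84 and 8.97. PDE1, a phosphodiesterase that breaks down cAMP, was lower, with 9.74, 8.66, 8.65 and 7.91.

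**Figure D4:**
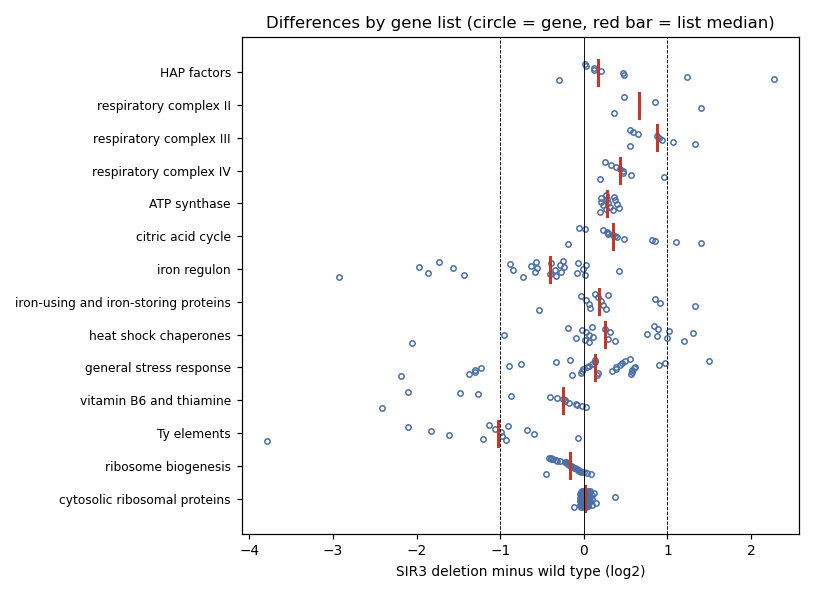
Difference between the SIR3 deletion and wild type (log2, horizontal axis) for the members of 14 gene lists, with a circle for each gene and a red bar at the list median. Respiratory complexes lie to the right of 0, Ty elements to the left, iron genes mostly to the left, and cytosolic ribosomal proteins close to 0.

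Part of the iron regulon was called lower. Yeast turns on the iron regulon through the activator Aft1 when iron is short. Of 27 measured members, 6 were called lower and none higher, 22.2% of the list against 1.67% of all genes, 24 had negative differences and the median was -0.40. FIT2, a cell wall mannoprotein that retains iron, had levels of 13.19, 12.80, 10.26 and 11.49, 7.60-fold lower in the SIR3 deletion. FIT3 had 12.95, 12.78, 10.98 and 11.64 and FIT1 8.64, 7.99, 7.07 and 8.08, and the SIR3 deletion was the lowest array for each of these FIT genes. ARN2, a transporter of iron-bound siderophores, had 11.41, 11.20, 9.69 and 11.01. TIS11, which binds and destabilises mRNAs of iron-using proteins, had 10.55, 9.94, 8.69 and 9.69, and FRE4, a reductase, 9.07, 8.10, 7.64 and 8.90.

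The high-affinity iron transport genes FET3 and FTR1 were not called, at -0.39 and -0.40, nor were the siderophore transporters ENB1, ARN1 and SIT1, at -0.89, -0.85 and -0.64. FRE1 was at 0.03 and ISU1, a scaffold for iron-sulphur clusters, at 0.42. LSO1, a small gene outside the list, had levels of 5.14, 3.34, 2.66 and 3.13, and with values raised to background it was at least 1.69-fold lower. Among 14 genes of iron-using and iron-storing proteins, CYT1 was the called one and 12 had positive differences, with a median of 0.19. FIT2 and FIT3 are neighbours on the chromosome. The medians of the iron regulon in the SIR2 and SIR4 deletions were -0.11 and -0.16.

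Stress genes were called in both directions. Of 23 chaperone genes, 3 were higher and 1 lower, 13.0% and 4.35% against 0.734% and 1.67% of all genes, with a median of 0.25. HSP78 and HSP104, disaggregases of mitochondria and cytosol, had levels of 7.66, 9.44, 8.97 and 7.57 and of 10.67, 12.23, 11.87 and 10.41. HSP30, a membrane protein, had 7.91, 8.30, 8.93 and 7.83. In contrast the small heat shock gene HSP26 had 7.71, 7.90, 5.65 and 6.38, lowest in the SIR3 deletion and at the wild-type level in the SIR2 deletion. HSP82 and STI1 were not called, at 0.997 and 0.88, and HSP12 lay at -0.96.

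Of 35 general stress genes, 1 was higher and 5 lower, 2.86% and 14.3% of the list against 0.734% and 1.67% of all genes, and the median was 0.14, against 0.64 without SIR2 and -0.07 without SIR4. GPD1, which makes glycerol phosphate under osmotic stress, had levels of 10.55, 12.41, 12.05 and 11.16. DDR2, a gene induced by many stresses, had 8.19, 6.77, 6.001 and 7.34. YGP1, a secreted glycoprotein, had 10.99, 11.66, 9.62 and 10.93, and only the SIR3 deletion was low. DDR48, GRE1 and XBP1 differed by -1.31, -1.23 and -1.30, the last below background in the SIR3 deletion and at least 1.67-fold lower. The trehalose gene TSL1, not called, was at 0.98.

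At the cell wall, CWP1 and HPF1 were among the 12 largest increases. CWP1, a mannoprotein linked to glucan, had levels of 11.09, 12.83, 13.10 and 12.14, and HPF1, a large mannoprotein, 12.52, 14.16, 14.41 and 13.69, with the SIR3 deletion the highest array for both. TIR1, a mannoprotein of cold and low-oxygen growth, had 11.62, 12.08, 10.51 and 12.16, and the SIR3 deletion was the only strain below wild type. The other 32 of 35 cell wall genes were not called, from -0.94 for TIR4 to 0.72 for TOS6, and the median was -0.01.

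Some vitamin genes were called lower. SNO1, which forms a glutaminase for vitamin B6 synthesis with Snz1, had levels of 7.22, 5.24, 4.81 and 6.28. SNO3 had 8.47, 6.55, 6.36 and 6.33 and SNZ3 9.01, 8.28, 7.53 and 7.93, and both have probe sets that can match several sequences. THI22, a gene related to thiamine synthesis, had 10.15, 9.04, 8.88 and 9.14. These were the 4 called of 15 vitamin B6 and thiamine genes, 26.7% against 1.67% of all genes, with a median of -0.25. SNZ1 was not called at -0.87, nor was the thiamine gene THI4 at -0.08.

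**Figure D5:**
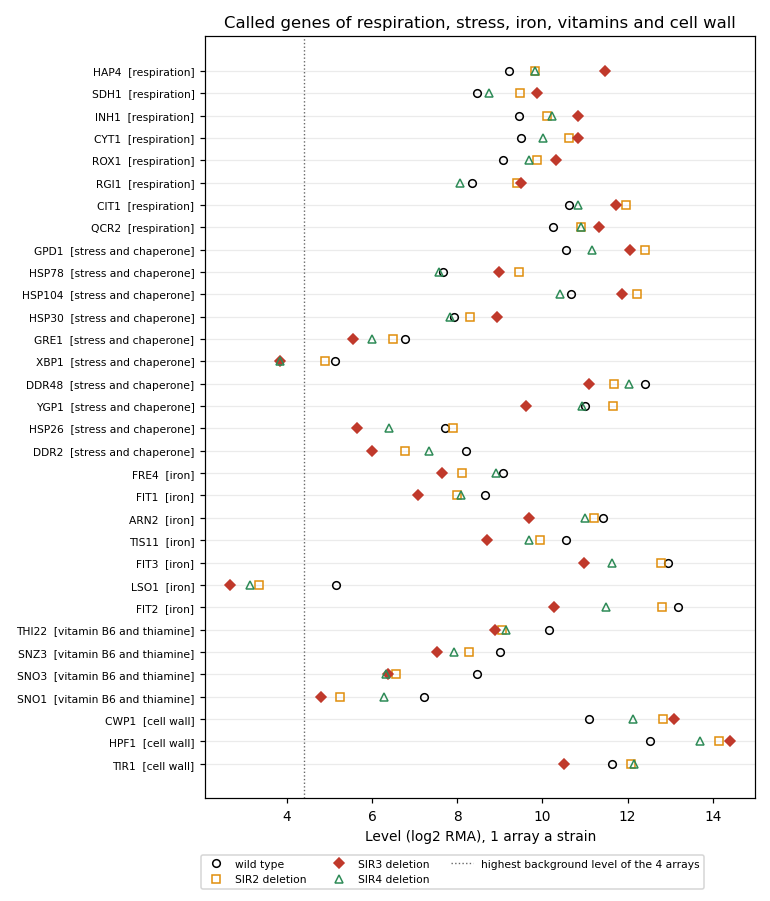
Levels (log2 RMA, horizontal axis) of called genes of respiration, stress, iron, vitamins and cell wall on the 4 arrays, 1 array a strain. The SIR3 deletion (filled red) is the highest array for HAP4, CWP1 and HPF1 and the lowest for FIT2, FIT3, HSP26, YGP1 and TIR1, and the SIR2 deletion lies beyond it for CIT1, HSP78, HSP104 and GPD1.

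Every measured retrotransposon gene had a negative difference. Ty elements are long terminal repeat retrotransposons, and the genes of their Gag and Pol proteins are present in many near-identical copies. Of 14 measured Ty genes, 7, or 50%, were called lower against 1.67% of all genes. All 14 had negative differences, as did 2813 of all 5449 genes, and the median was -1.03. YGR109W-A, from a Ty3 element, had levels of 9.07, 5.64, 5.28 and 5.92, and its overlapping partner YGR109W-B, not called, had 8.83, 7.80, 7.92 and 7.55. YAR010C, from a Ty1 element, had 13.85, 12.19, 11.75 and 12.26, and YBL100W-A, from a Ty2 element, 11.59, 10.04, 9.76 and 9.07. The other called genes were YDR261C-D at -1.61, YAR009C at -1.21, YDR316W-B at -1.13 and YDR261W-B at -1.06, and YHL009W-A was nearest 0 at -0.07. Of the 14 probe sets 12 can match several sequences, so single copies are not told apart, and without them the median of the other 2 was -0.75. Medians in the SIR2 and SIR4 deletions were -0.96 and -1.10.

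Genes of nitrogen use, NAD and transport were called singly. CAR2, an arginine-degrading transaminase, had levels of 9.99, 11.94, 11.22 and 10.48, PTR2, the peptide transporter, 10.18, 12.51, 11.26 and 11.09, and ARG3, an arginine synthesis gene, 9.43, 7.74, 8.38 and 9.55. These were the called ones of 31 nitrogen genes, 6.45% higher and 3.23% lower against 0.734% and 1.67% of all genes. The list median was -0.21. PNC1, the nicotinamidase, had 9.85, 11.96, 11.53 and 9.89 and was at the wild-type level in the SIR4 deletion, and the other 15 genes of NAD synthesis were not called, with a median of 0.16 for the list. STP4, a putative transcription factor, had 9.04, 9.09, 11.16 and 9.90, high in the SIR3 deletion and near wild type in the SIR2 deletion. VBA2, a vacuolar amino acid transporter, had 10.43, 8.67, 8.44 and 8.57, and the sorbitol dehydrogenase gene SOR2 and the alcohol dehydrogenase-like gene BDH2 differed by -1.55 and -1.15. HES1, an oxysterol-binding protein, had 7.15, 6.09, 5.26 and 6.67, the called one of 21 sterol genes.

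DNA metabolism supplied a few members. HUG1, an inhibitor of ribonucleotide reductase induced by DNA damage, had levels of 8.32, 8.22, 6.87 and 8.004, low in the SIR3 deletion alone. MHF2, a histone-fold partner of a DNA helicase, had 10.12, 7.70, 8.08 and 7.66, and RTT107, a scaffold of DNA repair, 8.78, 7.97, 7.72 and 7.56. SLD7, a factor of replication initiation, had 7.20, 6.90, 8.41 and 7.17 and was high in the SIR3 deletion alone.

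The remaining called genes belonged to no list. CIS1 had levels of 9.70, 8.85, 6.76 and 8.35, and the SIR3 deletion was the lowest array. SRD1 had 10.39, 7.44, 7.58 and 9.77 and YCL021W-A 9.63, 7.28, 7.37 and 8.91, and for both the SIR4 deletion was the nearest to wild type. ICS2, next to AMN1 on the chromosome, had 9.49, 6.05, 5.83 and 5.88. SHH3, IZH4 and TMT1 differed by -1.63, -1.25 and -1.06, and GPG1, FMP16, MOH1 and SPG4 by -1.36, -1.14, -1.06 and -1.03. Genes with no standard name were lower at YPR027C with -1.19, YKL070W with -1.14 and YFL012W with -1.06. With values raised to the 99th percentile of the other yeast, YPR027C, YKL070W and YFL012W were 1.25-fold, 1.51-fold and 1.30-fold lower. MOH1 and SPG4 were then 1.18-fold and 1.27-fold lower, so all of these fell under the 2-fold limit. YLR031W and YLR030W were below background in the SIR3 deletion, at least 2.56-fold and at least 1.20-fold lower. YBR072C-A, at -1.27, was below background on both arrays, and raising its values to background left a difference of 0.10.

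On the higher side, YDR034C-A had levels of 5.48, 7.11, 7.14 and 6.75. YML003W was below background in wild type and was at least 1.66-fold higher in the SIR3 deletion. YPC1, a ceramidase gene, and ECM13 were higher by 1.28 and 1.38. YLR297W, YKR075C and YER053C-A were higher by 1.29, 1.16 and 1.04, and RPM2, the protein subunit of mitochondrial RNase P, by 1.09. Genes with no standard name made up 20% of higher and 19.8% of lower genes, against 9.16% of all genes. Probe sets that can match several sequences served 3 of 40 higher and 12 of 91 lower genes, and 114 of all 5449.

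Called genes were sometimes neighbours. Of 5017 adjacent pairs of measured protein-coding genes, 12 held a called gene on both sides, which involved 22 genes. Over all genes 2.4% were called, and whether 12 pairs is more than random placement would give was not tested. In 9 pairs both were lower, and in 1, COS12 with YGL262W, both were higher. Divergent pairs were ICS2 with AMN1, SNO3 with SNZ3, and YBR072C-A with RDH54. Neighbours on the same strand were THI22 with AXL1, YLR030W with YLR031W, YAR066W with YAR068W, and the Ty genes YAR009C and YAR010C. Convergent pairs were FIT2 with FIT3 and HSP26 with YBR072C-A. Opposite directions were seen in COS8 with ARN2, at 2.53 and -1.73, and in DDI3 with SNO3.

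Many growth and housekeeping groups held no called gene. These were 127 cytosolic ribosomal proteins with a median of 0.01 and a range of -0.12 to 0.38, 10 histone genes at 0.02, and 25 other silencing and telomere factors at 0.00, from RIF2 at -0.47 to ABF1 at 0.48. The 30 ribosome biogenesis genes had a median of -0.16, and 28 of them negative differences. Also without a call were 17 cyclin and cell cycle genes with a median of -0.15, 12 purine synthesis genes at -0.04, 14 copper and zinc genes at -0.04, 16 phosphate genes at -0.03 and 24 sulphur genes at -0.04. The 16 genes of drug efflux had a median of -0.21. AMN1 was the called one of 12 daughter cell genes, at a median of 0.07.

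Differences of the members are set side by side here for the 3 deletions, which share the wild-type array. The 40 higher genes had a median difference of 1.36 without SIR3, 1.45 without SIR2 and 0.63 without SIR4. For the 90 lower genes other than SIR3 the medians were -1.71, -1.44 and -1.31, in the same order. The members were chosen on the SIR3 deletion, so the size in that column has no independent support.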

How the data were processed

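Total RNA from 4 strains was measured on Affymetrix yeast arrays, 1 array a strain. The deposited values are log2 levels normalized with RMA by the authors, per the submitters' processing notes, whose version is not given in the sources used here. Levels ran from 2.16 to 15.2. Of 10928 probe sets, 5498 had S. cerevisiae names in the platform annotation, giving 5449 genes, and for 47 genes with several probe sets the brightest was used. Differences were taken gene by gene with pandas 2.3.3 and numpy 2.4.6 under Python 3.11.15, and exact binomial intervals came from scipy 1.17.1. RMA sets all arrays to 1 distribution, so a shift of all genes together cannot be seen. A probe set was above background over the 95th percentile of probe sets for another yeast. Names and gene order came from the R64 table, and the files name no build. Members, role groups and 43 gene lists were chosen with earlier results of these data known. Named were SIR3 and its neighbours, every called gene, the 12 largest differences in each direction with all levels, genes at the limit, and list extremes. No sequence was used here.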

Additional observations from a re-analysis of the deposited data

Results flagged for a closer look

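Outside the named genes, 1 of 47 reporter probe sets on the arrays, which carries no gene name in the annotation used here, was bright in the deletions. Its level was 2.96 in wild type, where it did not reach background, and 14.59, 14.60 and 14.60 without SIR2, SIR3 and SIR4. The SIR3 deletion was at least 1266-fold above wild type, and the probe set was picked out because no comparison of genes uses it. Per the labels the deletions were made with a KanMX gene, and whether this probe set reads it was not tested.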

How the results depend on the processing

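Without replicates, no value has an error and leaving out an array was not possible. No paired analysis was possible because each strain has 1 array. With limits of 1.5-fold and 3-fold, 148 and 15 genes were higher and 206 and 50 lower. Under the other settings tried, which were centring, a repeated quantile normalization, the background rules and the choice of probe sets, higher genes numbered 38 to 48 and lower genes 76 to 91. Raising values to the 99th percentile of the other yeast, chosen after seeing the data, left 38 and 76. It left 114 of the 131 genes past 2-fold and turned PRM6 to 0.0756. It set LSO1, NDJ1, FIG1, XBP1, YBR298C-A, YBR072C-A, YAR066W, YLR030W and YML003W to 0.138, the difference between the floors of the arrays. The same floor left YGL262W 1.40-fold higher and YLR031W 1.21-fold lower. YPR027C, YKL070W, YFL012W, MOH1 and SPG4 were left 1.25-fold, 1.51-fold, 1.30-fold, 1.18-fold and 1.27-fold lower. Of the 131 genes, 120 stayed past 2-fold after the repeated quantile normalization and 122 with values raised to background, where YBR298C-A and YBR072C-A turned to 0.0767 and 0.0994. Within 10 kb in place of 20 kb the share of higher genes near ends was 10.4%, and with the outermost 8 genes of each end, also chosen after seeing the data, it was 4.44%. Without probe sets that can match several sequences, the medians of the silent mating loci, COS genes and Ty genes were 6.14, 0.48 and -0.75, the mating loci value resting on HMRA1. With values raised to background, the median of the strain's marker genes was 0.0994 in place of -0.0950. Of these 5 genes 1 was below background on both arrays, and 0.0994 is the difference between the background levels of the arrays.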

Other observations

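Among probe sets with neither a gene name nor a control or reporter label, 4 of 3470 were at least 2-fold higher in the SIR3 deletion and 3 were lower.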
